A study of Mus musculus with 24 samples.

Results

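Chemokines and leukocyte adhesion molecules were described in mouse liver as a set of 10 genes, namely the chemokines Cxcl1, Cxcl2, Cxcl9, Cxcl10, Ccl2, Ccl3, Ccl4 and Ccl5 and the adhesion molecules Icam1 and Vcam1. A probe belonged to the set where the accession that the array files give for it matched one of these symbols. That rule found 11 probes for the 10 genes, 1 probe a gene and 2 for Vcam1, among 17016 genes with a matched probe. Liver RNA of male C57BL/6N mice was labelled with Cy5 and set against a Cy3-labelled commercial mouse reference RNA on 24 arrays, 1 array a sample. The control groups were pair fed, for 10 days (P10d, n = 3) or for 8 weeks (P8w, n = 4). The ethanol groups were an ethanol diet for 8 weeks (E8w, n = 5), the diet for 10 days and 1 binge of 5 g/kg ethanol (E10d1B, n = 3), the diet for 8 weeks and 1 such binge (E8w1B, n = 5), and the diet for 8 weeks with a binge of 5 g/kg given 2 times per week (E8wMB, n = 4). The labels give neither the ages of the mice nor the time between the last binge and the collection of the liver. They also do not say that the samples of a group are separate animals, so the spread behind each p-value may be technical.

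Chemokines are small secreted proteins that guide leukocytes along a gradient through receptors on the leukocyte surface. Cxcl1 and Cxcl2 act through Cxcr2 and draw neutrophils, Cxcl9 and Cxcl10 act through Cxcr3 on activated T cells and NK cells and are classical targets of interferon signalling, Ccl2 draws monocytes through Ccr2, and Ccl3, Ccl4 and Ccl5 draw T cells and monocytes. Icam1 and Vcam1 stand on endothelial and other cells and hold leukocytes through their integrins. In liver, hepatocytes, Kupffer cells, stellate cells and sinusoidal endothelial cells can make chemokines, and NF-kB and interferon-responsive factors are known to drive their transcription.

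RefSeq promoters (GRCm38.p6, 250 bases before to 50 bases after the start) were at hand for 6 of the 10 genes, namely Cxcl1, Cxcl2, Cxcl9, Cxcl10, Ccl3 and Icam1. The 220 bases before the start are shown for the neutrophil chemokines Cxcl1 and Cxcl2, which hold the same NF-kB stretch, and for the interferon-induced chemokines Cxcl9 and Cxcl10, the members called lower in E8w1B than in P8w, though not than in E8w. They lie at chr5:90891025-90891244 (plus strand) for Cxcl1, chr5:90903679-90903898 (plus strand) for Cxcl2, chr5:92328080-92328299 (minus strand) for Cxcl9 and chr5:92348890-92349109 (minus strand) for Cxcl10, and are written 5′ to 3′ along the gene, with motif matches in capitals.
Cxcl1: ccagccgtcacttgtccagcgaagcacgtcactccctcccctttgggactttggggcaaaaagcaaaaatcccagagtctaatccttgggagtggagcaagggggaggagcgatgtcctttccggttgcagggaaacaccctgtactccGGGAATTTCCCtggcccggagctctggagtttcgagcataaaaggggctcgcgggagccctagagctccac
Cxcl2: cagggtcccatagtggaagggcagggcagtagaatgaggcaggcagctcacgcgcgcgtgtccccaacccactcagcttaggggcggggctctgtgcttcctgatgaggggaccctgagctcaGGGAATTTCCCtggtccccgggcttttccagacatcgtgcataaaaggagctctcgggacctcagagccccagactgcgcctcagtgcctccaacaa
Cxcl9: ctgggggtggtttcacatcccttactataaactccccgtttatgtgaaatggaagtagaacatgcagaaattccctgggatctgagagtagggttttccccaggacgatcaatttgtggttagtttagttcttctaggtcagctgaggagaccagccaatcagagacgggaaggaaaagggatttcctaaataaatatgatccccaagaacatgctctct
Cxcl10: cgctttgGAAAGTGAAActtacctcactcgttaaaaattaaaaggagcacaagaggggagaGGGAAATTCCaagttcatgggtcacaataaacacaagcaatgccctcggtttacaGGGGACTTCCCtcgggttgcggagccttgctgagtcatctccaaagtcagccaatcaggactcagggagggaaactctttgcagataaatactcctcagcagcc
The capitals mark the NF-kB consensus and the interferon response element ISRE, searched as GAAANNGAAA, and the interferon gamma element GAS, searched as TTCNNNGAA, was looked for as well, each on both strands. Cxcl1 and Cxcl2 carry the same stretch GGGAATTTCCC, in which 2 NF-kB matches on opposite strands overlap, 71 to 61 bases before the start of Cxcl1 and 97 to 87 bases before that of Cxcl2. Cxcl10 carries the ISRE match GAAAGTGAAA and the NF-kB matches GGGAAATTCC and GGGGACTTCCC, the last of which holds overlapping matches. The shown stretch of Cxcl9 has no match to the 3 patterns as written. Over the windows of 300 bases, 3 of the 6 promoters held an NF-kB match against 8.46% of all 32807 promoters, 1 held an ISRE match (Cxcl10) against 3.43%, and 1 held a GAS match (Icam1) against 8.29%. A match describes the letters only.

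Most of these transcripts were dim in liver. Only 4 of the 11 probes, those of Cxcl1, Ccl2 and Icam1 and the brighter one of Vcam1, were well above background in the liver channel, Cy5, on all 24 arrays, where 73.2% of the 24375 named probes were. Ccl5 reached that level on 23 arrays and Cxcl9 on 19, Cxcl10 and Ccl3 on 13 each, Cxcl2 on 10 and Ccl4 on 4. The median net Cy5 intensity over the 24 arrays, that is the spot's median less its local background, ran from 13.75 for Ccl4 and 35 for Cxcl2 to 346.4 for Ccl2 and 650.5 for Cxcl1. Ccl4 was above background on all 4 arrays of E8wMB and on 0 arrays of every other group. Cxcl2, Cxcl9 and Cxcl10 were above background on 0 of 3 arrays of P10d, and Cxcl10 on 1 of 5 arrays of E8w1B against 4 of 5 of E8w. In E8wMB each of the 11 probes except that of Cxcl2, with 2 of 4, was above background on all 4 arrays. These arrays were scanned apart from the other groups, on another scanner, so the group and the scan cannot be told apart. The reference channel, Cy3, was also above background there on 4 of 4 arrays for Cxcl10 and Ccl3, against 1 of 4 and 2 of 4 in P8w. For Ccl4 it was above background on 2 of 4 arrays of E8wMB and on 0 elsewhere. Levels of different probes were not compared beyond this, since each probe has its own response.

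**Figure D1:**
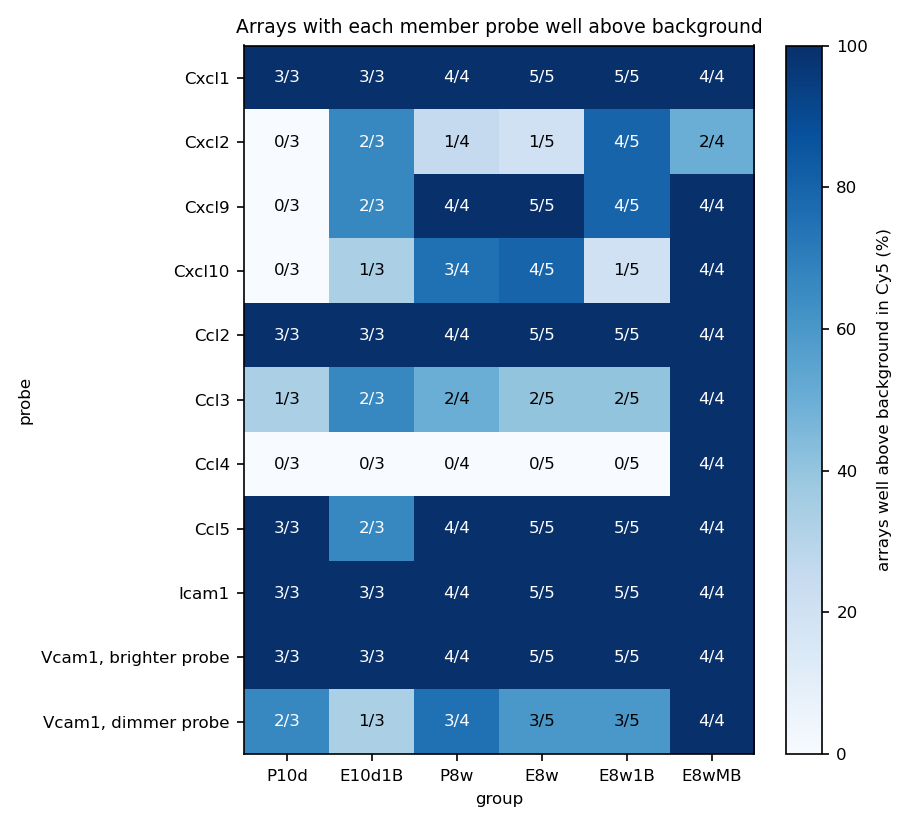
Each cell gives the number of arrays, of those in the group, on which a probe (rows) was well above background in the liver channel for each of the 6 groups (columns), and the shade gives the same as a percentage. Cxcl1, Ccl2, Icam1 and the brighter Vcam1 probe are at the full number in every group, while Ccl4 is at 4 of 4 in E8wMB and at 0 elsewhere. E8wMB was scanned apart from the other groups.

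The reading used below is the log2 ratio of Cy5 over Cy3 on an array after background correction and loess normalization, in which 50 units are added to both channels, so that ratios of dim spots are drawn towards 0 and folds of dim genes are understated. Differences between groups came from 1 limma fit over all 24 arrays, and a gene counted as called at a p under 0.05 after Benjamini-Hochberg adjustment over all genes tested. In E10d1B against P10d, 0 of the 10 members were called (limma), where 7.22% of 15665 genes were, and 1 member, Cxcl9, had an unadjusted p under 0.05 against 19.7% of all genes. In E8w against P8w, 0 of 10 were called, where 0.153% of genes were, again with Cxcl9 alone under an unadjusted 0.05 against 7.27% of all genes. In E8w1B against P8w, 3 of 10 were called, Cxcl1 higher and Cxcl9 and Cxcl10 lower, where 16.2% of genes were (7.54% higher and 8.71% lower). In E8w1B against E8w, 1 of 10 was called, Cxcl1 higher, against 16.4% of genes (8.04% higher). In E8wMB against P8w, 1 of 10 was called, Ccl4 higher, against 20.5% (8.01% higher), and in E8wMB against E8w1B 2 of 10, Cxcl10 and Ccl4 higher, against 29.4% (12% higher). Ccl4 passed the filter on dim probes only through the E8wMB arrays, so its calls as higher there are not independent of that filter. E8wMB was also scanned apart from the other groups. The difference between the 8-week and the 10-day contrast, (E8w1B minus P8w) minus (E10d1B minus P10d), was called in 2 of 10, Cxcl9 and Cxcl10, both lower, against 3.35% of genes (2.41% lower). The median difference of the 10 members lay between -0.0106 and 0.10 in the 7 comparisons and that of all genes between -0.0094 and 0.0241. The ranges of the groups did not overlap for 0 members in E8w1B against E8w, where 12.3% of genes had no overlap, for 1 (Cxcl10) in E8w against P8w (4.76% of genes) and in E8w1B against P8w (14.3%), for 2 in E8wMB against P8w (26.1%) and against E8w1B (21.3%), and for 3 in E10d1B against P10d (26.5%). Comparisons that share P8w, E8w or E8w1B are not independent of each other.

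**Figure D2:**
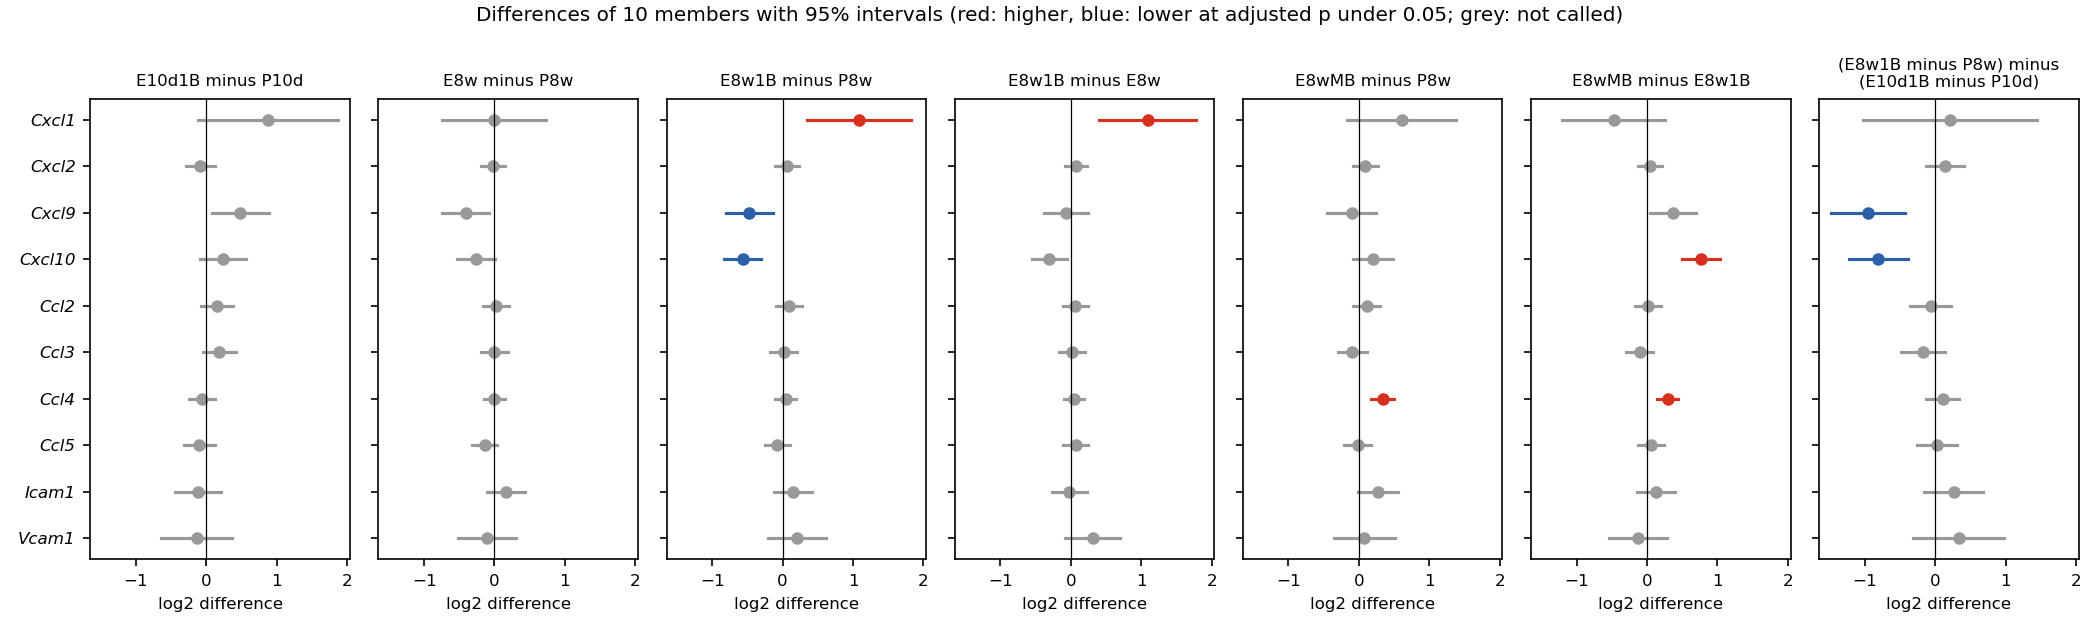
Each panel is 1 of the 7 comparisons, and each point is the log2 difference of 1 of the 10 members with its 95% interval from the limma fit. Red and blue mark members called higher and lower at an adjusted p under 0.05, and grey marks those not called. The called members are Cxcl1, Cxcl9, Cxcl10 and Ccl4, of which Ccl4 passed the filter on dim probes only through E8wMB.

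Cxcl1, a neutrophil chemokine, had the widest spread of ratios among the members. Its log2 ratios were -0.47, -0.96, -1.22 and -1.63 in P8w, and -1.16, -1.08, -1.32, -1.27 and -0.56 in E8w. In E8w1B they were 1.62, -0.91, -0.54, 0.48 and -0.61. Replicates 1 and 4 of E8w1B lay above every array of P8w and E8w, while the other three lay among them, so the groups overlapped. The group mean was 0.011 ± 1.04 (SD, n = 5) in E8w1B, -1.07 ± 0.485 (n = 4) in P8w and -1.08 ± 0.306 (n = 5) in E8w. Cxcl1 was higher in E8w1B than in P8w by 1.08 on the log2 scale (SE 0.354), a 2.12-fold difference with a 95% interval of 1.27 to 3.52 and a limma adjusted p of 0.0391. Against E8w the difference was 1.09 (SE 0.334), 2.12-fold with an interval of 1.32 to 3.43 and a limma adjusted p of 0.027. E8w and P8w themselves differed by -0.0048 (SE 0.354, interval -0.74 to 0.73).

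Each slide of the first scan held up to 3 of these groups, which gives differences within a slide. Cxcl1 was higher in E8w1B than in P8w on 4 of 4 slides, by 0.056 to 1.02, and than in E8w on 5 of 5 slides, by 0.17 to 2.78. With slide as a fixed block the difference from P8w was 0.89 and was no longer called (limma adjusted p = 0.0736), and that from E8w was still called. Without replicate 1 of E8w1B, the array with the highest ratio and a net Cy5 intensity of 4677, the difference fell to 0.68 from either control (limma adjusted p = 0.0894 against P8w and 0.0694 against E8w). The call against P8w was also lost without P8w replicate 2 (1.12), 3 (1.03) or 4 (0.90) or E8w1B replicate 4 (0.96), and that against E8w without E8w replicate 1 (1.07), 2 (1.09), 3 (1.03) or 4 (1.04) or E8w1B replicate 4 (0.97). Both calls were lost with median centring and with only the groups compared. With replicate number as a block the call against P8w was lost.

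In the 10-day groups Cxcl1 read -1.62, -1.93 and -0.99 in P10d and -0.93 and -0.35 in E10d1B, where the spot of replicate 2 was marked as non-uniform by the scanner software and dropped. The groups did not overlap, and the difference was 0.88 (SE 0.482, interval -0.12 to 1.87) with a limma adjusted p of 0.337. E8wMB was the tightest group, with -0.54, -0.46, -0.49 and -0.36 on its arrays. It stood 0.61 above P8w (SE 0.373, adjusted p = 0.261 in limma) and 0.48 below E8w1B (difference -0.48, SE 0.354, adjusted p = 0.327 in limma). By mean the order of Cxcl1 was P10d (-1.52), E8w (-1.08), P8w (-1.07), E10d1B (-0.64), E8wMB (-0.46) and E8w1B (0.011), and no neighbours in it were farther apart than the larger of their SDs. This order runs across 3 scans, and E8wMB was scanned apart from the other groups. In the liver channel alone E8wMB differed from P8w by -0.29, and in the reference channel by -0.89 (limma adjusted p = 8.67e-05).

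Cxcl2, the other neutrophil chemokine, shares the NF-kB stretch printed above with Cxcl1 but was near background. Its ratios were 0.139, 0.0325, 0.134, -0.0134 and 0.0505 in E8w1B and -0.0019, 0.0033, 0.013 and 0.033 in P8w, and the groups overlapped. The difference was 0.057 (SE 0.0822, interval -0.11 to 0.23). The largest group mean of Cxcl2, 0.105 ± 0.174 (n = 4), was that of E8wMB, and the lowest, -0.069 ± 0.206 (n = 3), that of E10d1B. It was above background on 4 of 5 arrays of E8w1B and on 1 of 4 of P8w and 1 of 5 of E8w, at net Cy5 intensities of 24 to 53 in E8w1B and 21 to 35 in P8w. With median centring in place of loess, Cxcl2 was called higher in E8wMB than in P8w (0.54, limma adjusted p = 0.00112) and than in E8w1B (0.49, limma adjusted p = 0.000923).

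**Figure D3:**
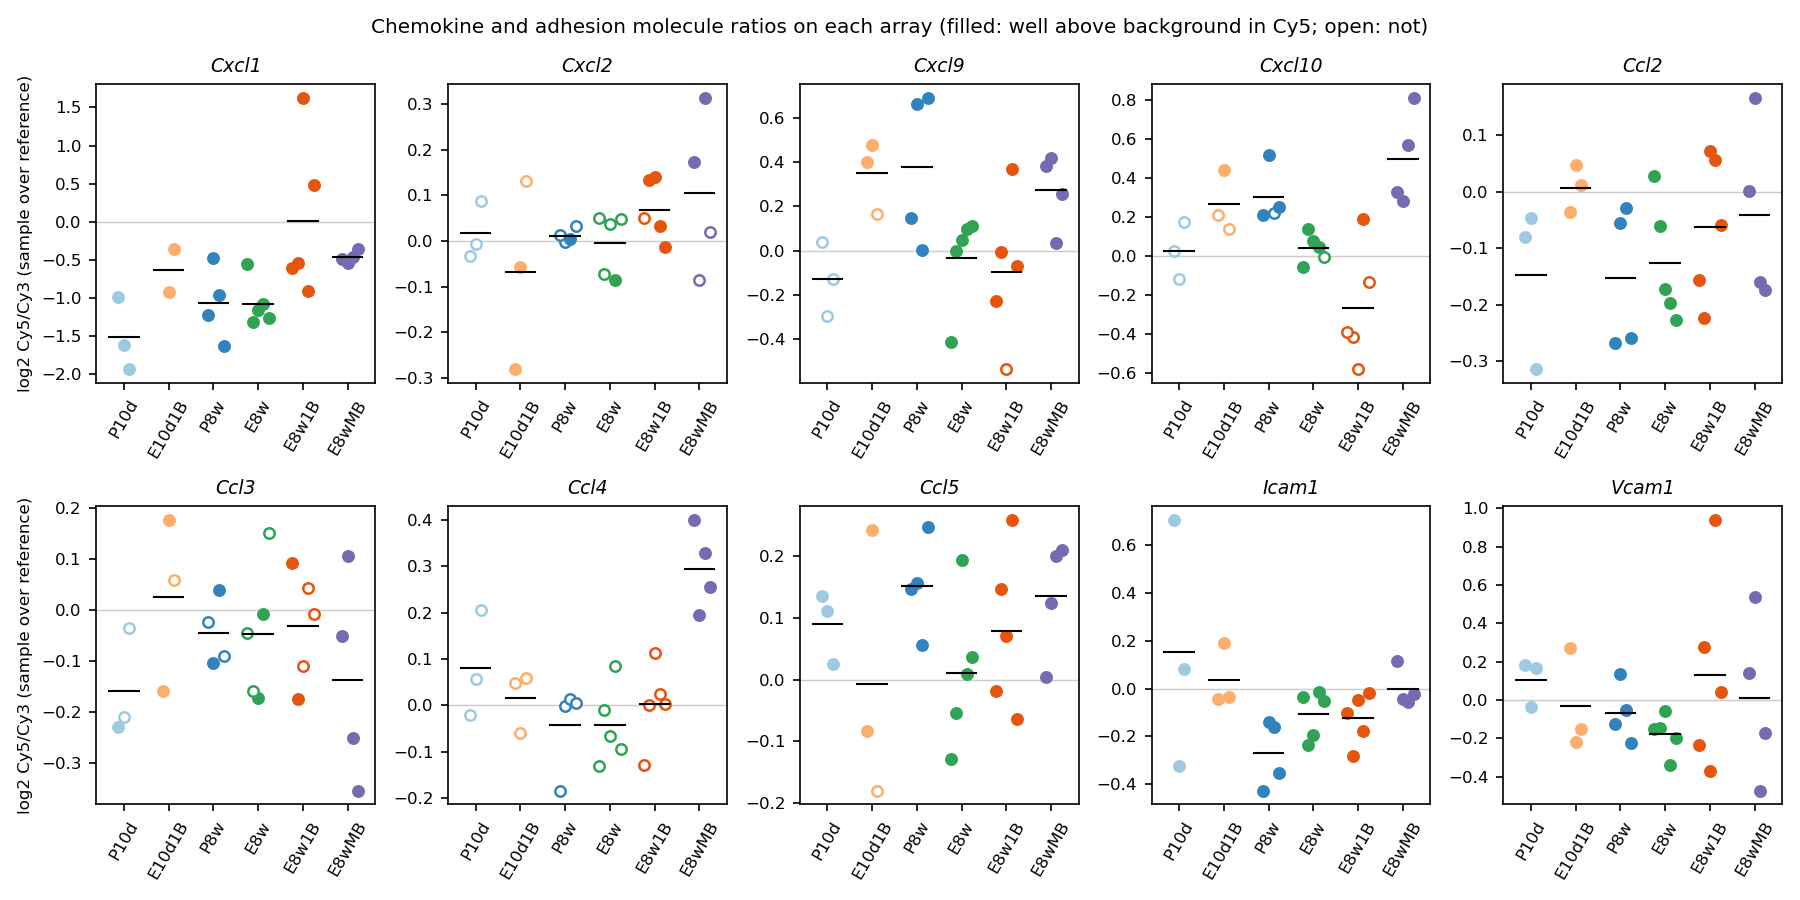
Each panel shows 1 gene and each point 1 array, with the log2 ratio of liver over reference on the vertical axis, the 6 groups on the horizontal axis and the group mean as a bar. Filled points were well above background in Cy5 and open points were not. The highest Cxcl1 point is E8w1B replicate 1 at 1.62, and 4 of the 5 Cxcl10 points of E8w1B are open and below 0.

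Cxcl10, an interferon-induced chemokine, was lower on every array of E8w1B than on any of P8w. The ratios were 0.52, 0.22, 0.21 and 0.25 in P8w, and -0.58, 0.19, -0.41, -0.14 and -0.39 in E8w1B. In E8w they were 0.075, 0.043, 0.14, -0.0062 and -0.059, below P8w and overlapping E8w1B, whose replicate 2 was higher than every E8w array. The difference of E8w1B from P8w was -0.57 (SE 0.128), a ratio of 0.675 with an interval of 0.562 to 0.812 and a limma adjusted p of 0.00316. The groups did not overlap, which 14.3% of all genes also showed in this comparison. Cxcl10 was lower on 4 of 4 slides, with differences of -0.66 to -0.0305, and the call held in all 20 alternatives run, at limma adjusted p of 0.000249 to 0.0335.

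The size of the fall in Cxcl10 differed between treatments of dim spots. The net Cy5 intensities were 12, 50, 18.5, 5 and 9 in E8w1B, and of these only the array at 50 was well above background, against 170, 29.5, 36 and 32.5 in P8w, where 3 of 4 were. With the scanner software's own ratio, which adds no offset, the difference was -2.77 (limma adjusted p = 0.000577), and from Cy5 alone it was -0.71 (limma adjusted p = 0.0335). Since 4 of the 5 arrays of E8w1B were not above background, the size of the difference cannot be given closely. Against E8w the difference was -0.30 (SE 0.121, interval -0.56 to -0.054, limma adjusted p = 0.0926). It was called with the scanner software's ratio (-1.99, limma adjusted p = 0.00564) and without E8w1B replicate 2 (-0.42, limma adjusted p = 0.00951).

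Cxcl9, which is also induced by interferon, read 0.66, 0.0045, 0.15 and 0.69 in P8w and -0.54, 0.37, -0.0066, -0.072 and -0.23 in E8w1B. In E8w it read 0.048, 0.097, -0.0041, 0.11 and -0.42. Arrays 1 and 4 of P8w were the highest, and the groups overlapped. The difference of E8w1B from P8w was -0.47 (SE 0.161), a ratio of 0.72 with an interval of 0.572 to 0.907 and a limma adjusted p of 0.0458. It was negative on 3 of 4 slides (-0.92 to 0.36). The call held in 7 of 20 alternatives, and it was lost without P8w replicate 1 (-0.38) or 4 (-0.37) and without E8w1B replicate 1 (-0.36), 3 (-0.50), 4 (-0.48) or 5 (-0.44). It was also lost with slide or replicate number as a block, with median centring and with only the groups compared. The deposited table, the scanner software's ratio and Cy5 alone did not call it either. In these settings the limma adjusted p was 0.0609 to 0.19. E8w differed from P8w by -0.41 for Cxcl9 (SE 0.161, limma adjusted p = 0.527) and by -0.26 for Cxcl10 (SE 0.128, limma adjusted p = 0.691). All 5 Cxcl10 arrays of E8w lay below all 4 of P8w, in a comparison where 4.76% of genes did not overlap.

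In the 10-day groups the differences of both genes had the other sign, though neither was called. Cxcl9 was 0.48, 0.17 and 0.40 in E10d1B and -0.30, -0.13 and 0.038 in P10d, with no overlap. The difference was 0.48 (SE 0.195, interval 0.075 to 0.88, limma adjusted p = 0.157). Its probe was above background on 2 of 3 arrays of E10d1B and on 0 of 3 of P10d. Cxcl10 was 0.44, 0.14 and 0.21 in E10d1B and -0.12, 0.17 and 0.024 in P10d, a difference of 0.24 (SE 0.156, limma adjusted p = 0.444) between groups that overlapped. Its probe was above background on 1 of 3 arrays of E10d1B and on 0 of 3 of P10d.

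The 2 contrasts were then compared in the same fit, which tests whether the response at 8 weeks differed from that at 10 days. For Cxcl9 the difference of the contrasts was -0.95 (SE 0.253, interval -1.48 to -0.43, limma adjusted p = 0.0366), and for Cxcl10 it was -0.81 (SE 0.202, interval -1.22 to -0.39, limma adjusted p = 0.0257). With the scanner software's ratio these were -2.95 and -3.2. Both probes were above background on 0 of 3 arrays of P10d, and that of Cxcl10 on 1 of 5 of E8w1B, so the sizes are not known closely. The 8-week groups were scanned in scan 1 and the 10-day groups in scan 2, so each contrast lies within a scan and the comparison of the contrasts lies between scans. With slide as a fixed block neither was called (Cxcl9 -0.76, limma adjusted p = 0.341, Cxcl10 -0.61, limma adjusted p = 0.243). Neither was called from Cy5 alone or with only the groups compared. Cxcl9 was not called with median centring or with replicate number as a block. Leaving out 1 array ended the Cxcl9 call in 7 cases (P8w 1 or 4, P10d 1 or 2, E10d1B 1 or 3, E8w1B 5), with differences of -0.95 to -0.85, and the Cxcl10 call in 4 (P8w 1, P10d 1 or 3, E10d1B 1), with -0.80 to -0.72. Over the 24 arrays the ratios of Cxcl9 and Cxcl10 had a Pearson r of 0.684, the highest of the member pairs, and of 0.523 with the group means taken out, where Cxcl9 and Vcam1 had 0.6. These arrays share the reference, the slides and the scans, so the correlation is only a description.

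Ccl2, the monocyte chemokine, was measured by 10 spots on each array and was above background throughout. Within an array the SD of the scanner software's log2 ratio over the unmarked spots had a median of 0.122. The 24 array means had an SD of 0.177. Its ratios were 0.072, 0.057, -0.22, -0.058 and -0.16 in E8w1B and -0.055, -0.028, -0.27 and -0.26 in P8w, a difference of 0.091 (SE 0.0892, interval -0.09 to 0.28). In the 10-day groups they were 0.047, 0.012 and -0.036 in E10d1B and -0.046, -0.31 and -0.080 in P10d, which did not overlap, with a difference of 0.15 (SE 0.109, limma adjusted p = 0.483). Non-overlap was found for 3 of 10 members in that comparison, Cxcl1, Cxcl9 and Ccl2, and for 26.5% of all genes. No comparison called Ccl2 by its ratio, and its group means spanned only -0.152 in P8w to 0.0077 in E10d1B.

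Ccl3, Ccl4 and Ccl5 are CC chemokines that draw T cells and monocytes. Ccl5 read 0.16, 0.057, 0.15 and 0.25 in P8w, 0.19, 0.0090, -0.054, 0.037 and -0.13 in E8w and 0.070, 0.26, 0.15, -0.063 and -0.018 in E8w1B. These ranges overlapped, and the differences from P8w were -0.14 (SE 0.0883) for E8w and -0.073 (SE 0.0883) for E8w1B. Ccl3, at net Cy5 intensities of 19.5 to 94, had group means from -0.157 in P10d to 0.0267 in E10d1B, and its limma adjusted p was at least 0.418 in the comparisons of groups. The intervals of Ccl5 and Ccl3 in E8w1B minus P8w were -0.26 to 0.11 and -0.18 to 0.21, on the scale with the offset.

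Ccl4 stood out in E8wMB. Its probe passed the filter, which needs signal well above background on 3 or more arrays, only through the 4 arrays of E8wMB. The calls of Ccl4 as higher there are therefore not independent of the filter. Its ratios there were 0.19, 0.33, 0.40 and 0.26, against -0.0013, 0.014, -0.18 and 0.0060 in P8w and 0.11, 0.025, 0.00019, 0.0021 and -0.13 in E8w1B. E8wMB lay above both groups with no overlap, though P10d replicate 2 read 0.21, which 26.1% and 21.3% of all genes also showed in those comparisons. The difference was 0.34 from P8w (SE 0.0766, 1.26-fold, interval 1.13 to 1.41, limma adjusted p = 0.00382) and 0.29 from E8w1B (SE 0.0727, 1.23-fold, interval 1.1 to 1.36, limma adjusted p = 0.00442). Since no array of P8w or E8w1B was above background, these folds give no close size. With the scanner software's ratio the differences were 0.97 and 1.06 on the log2 scale. That ratio differed by exactly 0 between E8w and P8w and between E10d1B and P10d, so it held no graded values on these dim arrays. The 0.97 and 1.06 therefore give no measured size either. Its net Cy5 intensities were 47, 44, 47.5 and 30 in E8wMB and 3 to 41 in E8w1B and P8w, where the array at 41, E8w1B replicate 1, was not called above background and the array at 30, E8wMB replicate 4, was.

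Icam1, which binds the integrins LFA-1 and Mac-1, read -0.14, -0.16, -0.43 and -0.35 in P8w, -0.19, -0.013, -0.23, -0.053 and -0.033 in E8w and -0.049, -0.18, -0.28, -0.016 and -0.10 in E8w1B. Its mean was lowest in P8w (-0.27 ± 0.142, n = 4), and the groups overlapped. The differences from P8w were 0.16 for E8w (SE 0.130, interval -0.10 to 0.43) and 0.14 for E8w1B (SE 0.130, interval -0.12 to 0.41), and on 4 of 4 slides E8w was the higher (0.105 to 0.299). P10d was the most uneven group, with -0.33, 0.082 and 0.71. Replicate 3 of P10d alone had a net Cy5 intensity of 299, against 85 and 111.5 for the other arrays.

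Vcam1, which binds the integrin VLA-4, was measured by a brighter and a dimmer probe. The brighter read -0.37, 0.94, 0.28, 0.040 and -0.23 in E8w1B and 0.14, -0.054, -0.13 and -0.23 in P8w. Replicate 2 of E8w1B was the highest, and the dimmer probe was also highest on that array among those of the group (0.52). In E8wMB the brighter probe read 0.54, -0.47, 0.14 and -0.17, and the arrays at 0.54 and -0.47 lay on 1 slide. The difference of E8w1B from P8w was 0.20 (SE 0.199, limma adjusted p = 0.576) by the brighter probe and 0.13 (limma adjusted p = 0.654) by the dimmer, fitted with every probe on its own. Neither adhesion molecule was called in any comparison by its ratio.

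The log2 differences not yet given were those of members that were not called. In E10d1B minus P10d they were -0.085 for Cxcl2, 0.18 for Ccl3, -0.065 for Ccl4, -0.098 for Ccl5, -0.12 for Icam1 and -0.14 for Vcam1. In E8w minus P8w they were -0.016 for Cxcl2, 0.027 for Ccl2, -0.0018 for Ccl3, -0.0019 for Ccl4 and -0.11 for Vcam1, and in E8w1B minus P8w 0.044 for Ccl4. In E8w1B minus E8w they were 0.073 for Cxcl2, -0.063 for Cxcl9, 0.064 for Ccl2, 0.016 for Ccl3, 0.046 for Ccl4, 0.068 for Ccl5, -0.020 for Icam1 and 0.31 for Vcam1. All of these lay within 0.31 of 0, with SEs of 0.0685 to 0.242, and Vcam1 had the widest intervals. In E8wMB minus P8w they were 0.093 for Cxcl2, -0.10 for Cxcl9, 0.11 for Ccl2, -0.092 for Ccl3, -0.018 for Ccl5 and 0.076 for Vcam1. In E8wMB minus E8w1B they were 0.037 for Cxcl2, 0.021 for Ccl2, -0.11 for Ccl3, 0.056 for Ccl5, 0.12 for Icam1 and -0.12 for Vcam1. The difference between the 8-week and 10-day contrasts was 0.21 for Cxcl1, 0.14 for Cxcl2, -0.063 for Ccl2, -0.17 for Ccl3, 0.11 for Ccl4, 0.024 for Ccl5, 0.26 for Icam1 and 0.34 for Vcam1.

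The E8wMB arrays were scanned in scan 3, on another scanner and with no other group, so the group and the scan cannot be told apart. For several members both channels stood apart in this scan. The net Cy3 intensity of Cxcl10, which reads the reference and not the liver, was 346.5 to 655.5 on the 4 arrays of E8wMB and 47.5 to 99.5 in P8w, while its net Cy5 intensity was 250 to 429.5 against 29.5 to 170. Cxcl10 was 1.66 higher in Cy5 alone in E8wMB than in P8w (limma adjusted p = 1.88e-06), and the reference channel was 1.46 higher (limma adjusted p = 7.68e-08). The ratio differed by 0.20 (SE 0.135, limma adjusted p = 0.319). Icam1 was 1.07 higher in Cy5 alone (limma adjusted p = 0.000882) and 0.80 higher in Cy3 (limma adjusted p = 0.00126), with a difference in the ratio of 0.27 (SE 0.137, limma adjusted p = 0.168) although the ratios of E8wMB and P8w did not overlap. Cxcl1 differed by -0.29 in Cy5 alone and by -0.89 in Cy3 (limma adjusted p = 8.67e-05). Ccl4 was higher in E8wMB in both channels, by 0.70 in Cy5 and 0.37 in Cy3 (limma adjusted p = 2.54e-05 and 0.00152). Over the groups of scan 1, by contrast, no member's Cy3 signal was called different. Against E8w1B, Cxcl10 read 0.28, 0.57, 0.33 and 0.81 in E8wMB and was 0.76 higher by the ratio (SE 0.128, 1.7-fold, interval 1.41 to 2.04, limma adjusted p = 0.000197). The Cxcl10 probe was above background on only 1 of 5 arrays of E8w1B, the scanner software's ratio gave 2.87, and the reference channel alone was 1.6 higher (limma adjusted p = 7.35e-09), so the size is not known closely. Cxcl9 was 0.37 higher (SE 0.161, limma adjusted p = 0.0857), which was called without E8w1B replicate 2 (0.49, limma adjusted p = 0.0231). Read from Cy5 alone, 7 of 10 members were called in this comparison, where 52.3% of all genes were, and 4 of 10 against P8w, where 50.2% were.

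**Figure D4:**
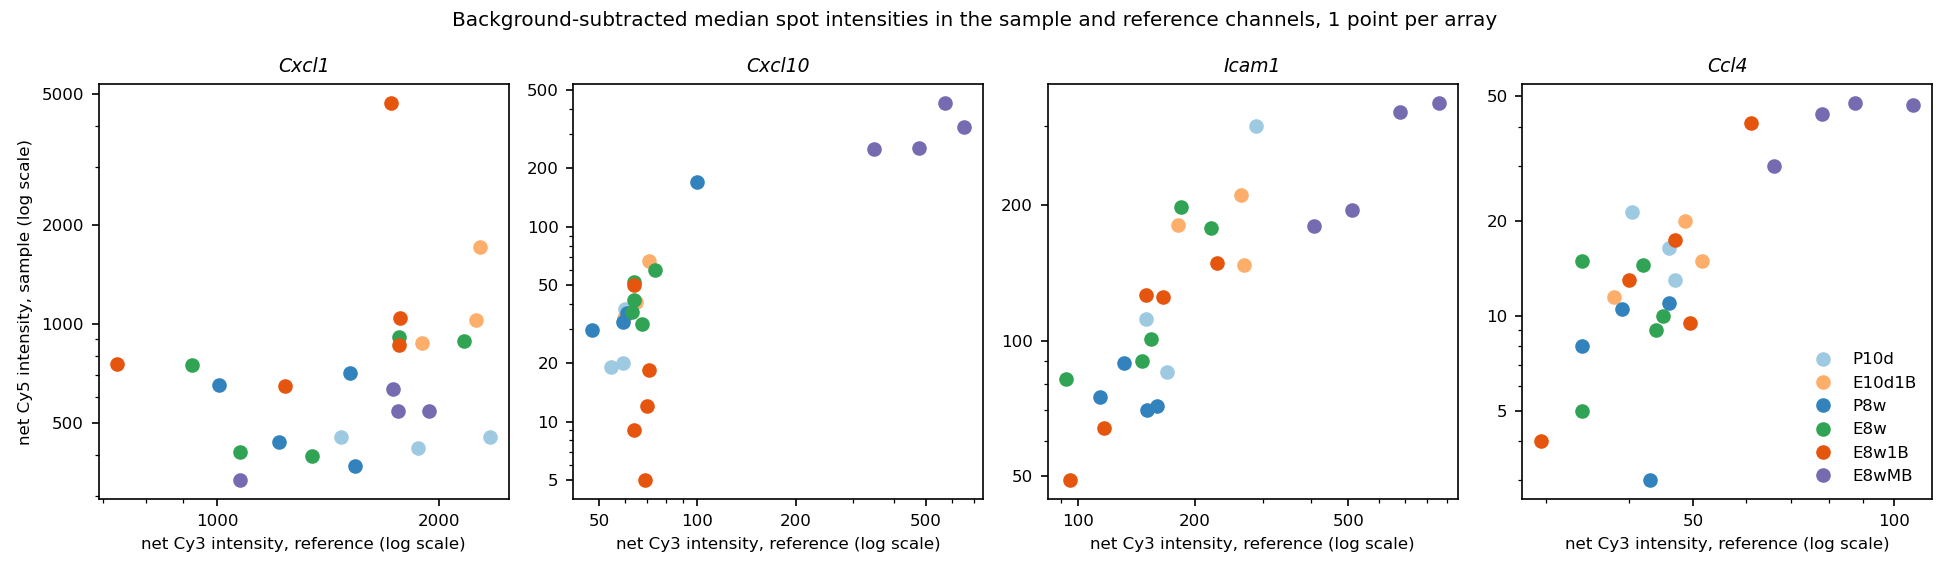
Each point is 1 array, with the net intensity of the reference channel on the horizontal axis and that of the liver channel on the vertical axis, both on log scales, for Cxcl1, Cxcl10, Icam1 and Ccl4. For Cxcl10 and Icam1 the 4 E8wMB arrays lie to the right of all others, that is at a higher reference signal, with Cxcl10 at 346.5 to 655.5 against at most 99.5 elsewhere.

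Genes of the same pathway outside the 10 members were taken from fixed lists, given here with the number called of those tested. Of all genes, 7.54% were called higher and 8.71% lower in E8w1B against P8w, 8.01% and 12.5% in E8wMB against P8w, and 12% and 17.4% in E8wMB against E8w1B. These shares were 4.32% and 2.9% in E10d1B against P10d and 8.04% and 8.38% in E8w1B against E8w. For the difference between the 8-week and 10-day contrasts they were 0.94% and 2.41%. Of the other CC ligands, 3 of 12 were called higher and 0 lower in E8w1B against P8w, namely Ccl6 (1.71, SE 0.240), Ccl9 (0.84, SE 0.216) and Ccl19 (0.43, SE 0.117), with a median of 0.059 over the list and of 0.024 over all genes. Ccl6 was called in E10d1B against P10d as well (1.19, SE 0.292), with Ccl28 lower (-0.51), and against E8w Ccl6 (1.93) and Ccl19 (0.46) were higher in E8w1B. Of the other CXC and CX3C ligands 1 of 10 was called in E8w1B against P8w, Cxcl12, the ligand of Cxcr4, at -1.48 (SE 0.224), and it was also lower against E8w (-1.35). In E8wMB against P8w, 2 of 12 CC ligands were higher, Ccl6 (1.03) and Ccl9 (0.72), and 1 of 10 CXC ligands was lower, Cxcl15 (-0.79). In E8wMB against E8w1B the lists gave 3 lower CC ligands, Ccl17 (-0.27), Ccl19 (-0.36) and Ccl6 (-0.68), and 2 higher and 2 lower CXC ligands, led by Cxcl12 (1.13), Cxcl15 (-0.81) and Cxcl13 (0.29).

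Among the receptors, 1 of 19 was called in E8w1B against P8w, Ccr9, at -0.41 (SE 0.103), at a limma adjusted p of 0.00793. Of all genes, 8.71% were called lower in that comparison. Of the receptors named above, Cxcr3 (-0.060) and Ccr2 (-0.012) were not called in E8w1B against P8w, and Cxcr2 had too few measured arrays to be tested. Ackr2 and Ackr4, decoy receptors that take up chemokines, were lower in E8wMB than in P8w (-0.53 and -0.33), and 4 of 20 receptors were lower in E8wMB than in E8w1B, near the 17.4% of all genes, led by Ackr4 (-0.46), Ackr2 (-0.43) and Ccr1 (-0.76). Of the other endothelial adhesion molecules 4 of 14 were higher in E8w1B than in P8w, led by Jam2 (0.94, SE 0.123), F11r (0.37) and Cd34 (0.45), and Jam2 was also higher in E10d1B than in P10d (0.82). In E8wMB against P8w 3 were higher and 3 lower, with Jam2 at 0.75, F11r at 0.45 and Pecam1 at -0.40, and against E8w1B 1 was higher and 4 lower, with Glycam1 at -0.51, Pecam1 at -0.42 and Esam at -0.52. Of the leukocyte integrins, Itgb2, the chain that pairs with Itgal to bind Icam1, was higher in E8w1B than in P8w (0.37) and Itgal lower (-0.29), and in E8wMB Itgam was lower than in P8w (-0.96) and than in E8w1B (-1.18).

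Of the inducers of chemokine transcription, 1 of 14 was higher and 1 lower in E8w1B against P8w, the NF-kB subunit Rela (0.55, SE 0.109) and the cytokine Il1b (-0.22, SE 0.0748), and Rela was also higher against E8w (0.62). The counts against P8w were near the shares of all genes, 7.54% higher and 8.71% lower. In E8wMB against P8w, 2 of 13 were higher and 3 lower, among them Tlr4 (-0.39) and Ly96 (0.34), where 8.01% of all genes were higher and 12.5% lower. In E8w against P8w 0 of 79 tested genes of the 6 lists were called and 6 had an unadjusted p under 0.05 (limma), with the lowest p for Pecam1 at -0.30. Of all genes, 0.153% were called there and 7.27% had an unadjusted p under 0.05 (limma). For the comparison of the 8-week and 10-day contrasts 1 of 77 tested genes of the lists was called, F11r (0.62), where 3.35% of all genes were.

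Markers of liver cell types were read on the same arrays. Of all genes, 7.54% were called higher and 8.71% lower in E8w1B against P8w, and 8.04% and 8.38% against E8w. These shares were 4.32% and 2.9% in E10d1B against P10d and 8.01% and 12.5% in E8wMB against P8w. For the difference between the 8-week and 10-day contrasts they were 0.94% and 2.41%. Of the hepatocyte markers, 6 of 6 with a probe were above background on every array. Their levels moved as well, with 2 of 6 higher in E8w1B than in P8w, Ahsg (1.24) and Fgb (1.80), and 3 of 6 higher in E10d1B than in P10d, Ahsg (1.05), Fgb (2.45) and Ttr (0.84). Of 10 neutrophil markers with a probe, 9 or 10 were above background on each array, S100a8 (0.61) and S100a9 (1.12) were called higher in E8w1B than in P8w, where Cxcl1 was higher too, and the mean log2 ratio of the list was -0.27 to -0.031 on P8w arrays and -0.087 to 0.39 on E8w1B arrays. The other 8 were not called, at -0.29 to 0.30. Against E8w, 2 neutrophil markers were higher, S100a8 (0.60) and S100a9 (0.73), and 1 was lower, Csf3r (-0.74). Of 5 monocyte markers tested, 1 was higher in E8w1B than in P8w, Cd14 (2.30), a receptor for lipopolysaccharide, and 2 were higher than in E8w, Cd14 (2.48) and Plac8 (0.41). Ly6g and Ly6c2 had no matched probe. Beside the lower Cxcl9 and Cxcl10 of E8w1B against P8w, the T and NK cell list had 0 of 9 markers called in that comparison. In that list 1 marker had an unadjusted p under 0.05 (limma), against 27.6% of all genes. The list means were -0.33 to -0.081 in P8w and -0.29 to -0.023 in E8w1B. The Kupffer cell list had 2 of 8 lower, Cd5l (-0.77) and Adgre1 (-0.68), with means of -0.22 to 0.44 in P8w and -0.77 to 0.30 in E8w1B. Of the 7 sinusoidal endothelial markers Clec4g (-0.80), Fcgr2b (-0.76) and Kdr (-0.66) were lower and Lyve1 (2.29) higher. In E10d1B against P10d, where Cxcl9 and Cxcl10 had positive differences, 2 of 9 T and NK cell markers were higher, Cd3g (0.98) and Nkg7 (0.75), with list means of -0.097 to -0.071 against -0.37 to -0.22 in P10d. The median difference of that list was only 0.037, and Cd8a (-0.23) and Gzma (-0.22) had negative values that were not called. In the same comparison 4 of 7 sinusoidal endothelial markers were higher, led by Fcgr2b (1.04), where 4.32% of all genes were called higher. In the difference between the 8-week and 10-day contrasts, 2 of 9 T and NK cell markers were called, both lower (Nkg7 at -1.10 and Cd3g at -1.28), while Cd8a (0.33) and Gzma (0.34) had positive values that were not called. In the same comparison 4 of 7 sinusoidal endothelial markers were lower, Fcgr2b (-1.81), Clec4g (-1.53), Kdr (-1.06) and Stab1 (-0.84), as were 1 of 8 Kupffer cell markers, Cd5l (-1.15), and 1 of 6 hepatocyte markers, Ttr (-1.31), and Cd14 was higher (2.04). In E8wMB against P8w, 2 neutrophil markers were higher (S100a8 and S100a9) and 4 lower, led by Ltf (-1.09), and 2 T and NK cell markers were higher by the ratio, Nkg7 (0.75) and Cd8a (0.31), and 1 lower. Read from Cy5 alone, Nkg7 (-1.33, limma adjusted p = 0.000246) and Cd8a (-0.38, limma adjusted p = 0.00164) were lower in E8wMB. The direction of these 2 markers therefore depended on the reference channel of that scan. Of the neutrophil markers called by the ratio, Retnlg (-0.85) and Camp (-0.47) had positive values in Cy5 alone (0.32 and 0.19). Only Ltf among them was also called in Cy5 alone (-0.58, limma adjusted p = 0.0213). S100a8 (0.64) and S100a9 (0.19) were not (limma adjusted p = 0.0598 and 0.556). The part of these shifts in the chemokine values was not tested, and in whole liver RNA fewer cells of a type and less RNA per cell cannot be told apart.

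The genes whose ratios followed each of 4 members most closely over the arrays were named by Pearson r among the genes measured on every array, 12070 for Cxcl1 and 12069 for the others. For Cxcl1 these were Arid5a (r = 0.881), Wnt11 (0.851) and Ube2s (0.843) over 23 arrays. For Cxcl10 they were Pter (0.845), Mxd4 (0.818) and Ckb (0.812) over 24 arrays, for Ccl2 Rragc (0.76), Siah1b (0.744) and Srf (0.71), and for Icam1 Ammecr1 (0.733), Ntsr1 (0.692) and Cela1 (0.69). These are the highest of many values, and the arrays share groups, slides and the reference.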

How the data were processed

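The series holds 24 Agilent 2-colour arrays with liver RNA in Cy5 and reference RNA in Cy3, per the labels. The labels name the reference as assorted mouse RNA and in other fields as liver, so its makeup is uncertain. Agilent Feature Extraction 11.5.1.1 gave median spot and background intensities in both channels, processed intensities and the deposited log10 ratio of Cy5 over Cy3, per the file headers. The authors' series table of deposited log2 values follows the log2 ratio of the processed intensities with a slope of 1; its headers do not state how it was made.

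From the median intensities, background correction used normexp with an offset of 50, and loess followed within arrays. The tools were R 4.3.3 and its package limma 3.58.1 (with statmod 1.5.0). Spots with the scanner's non-uniformity or population outlier mark (1.34% to 7.64% of an array) were left out, and spots of a probe were averaged. Probes needed a Cy5 signal well above background on 3 or more arrays, and each gene was read by the brightest of its probes that had 2 or more measured arrays in every group, which left 16135 of 17016 genes and all 10 members. RefSeq names matched 24375 of 41174 probes to 1 symbol, and that table (GRCm38.p6) served for names and promoters only. No spot was saturated, and 0 pairs of arrays were identical. Median intensities were 95.5 to 247 in Cy5 and 161.5 to 505 in Cy3, and the number of arrays limits the precision.

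The 6 group means were fitted together in limma with empirical Bayes moderation, for 7 comparisons, and p-values were adjusted by Benjamini-Hochberg over all genes tested; the fit was tested on simulated data. The arrays fell into 3 scans and 11 slides. The text names all 10 members in every comparison; of each pathway list, up to 3 called genes with the lowest adjusted p; and of 4 members, the 3 genes most alike. The members and lists were chosen with earlier results of these data known. Alternatives changed the block, normalization, filter, marked spots, channel, samples fitted and each array in turn. Listed genes with no matched probe (Cxcl11, Ccl26, Nfkb1, Ly6g, Ly6c2, Tf) were not analysed here, and Cxcl5, Ccl20, Ccl22, Ccr8, Il6 and Il17a were under the filter. A few listed genes are not reported here.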

Additional observations from a re-analysis of the deposited data

Results flagged for a closer look

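In Cxcl9, replicate 5 of E8w read -0.42, far below the other arrays of its group at -0.0041 to 0.11. In Cxcl10, replicate 1 of P8w read 0.52, above the others at 0.21 to 0.25, and its Cxcl9 ratio was 0.66. In Ccl4, replicate 3 of P8w read -0.18, below the others at -0.0013 to 0.0139, on a spot not above background. These were 3 of 40 groups of a member examined for a single distant array, where chance gives about 1 in 20. For Cxcl9 the contrast of binge-exposed and pair-fed livers differed between 8 weeks and 10 days by -0.95, and for Cxcl10 by -0.81, in the limma test of that difference.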

How the results depend on the processing

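Of 1399 alternative values for the 70 differences of members, 1333 kept their direction and side of the threshold, or passed it under neither setting (105 of these changed sign), 49 lost the call, 15 gained it, and 2 changed direction: Ccl2 (-0.42) and Ccl3 (0.29) in E8wMB against E8w1B, read from Cy5 alone. The calls of Cxcl10 in E8w1B against P8w and in E8wMB against E8w1B, and both calls of Ccl4, held in every alternative run. No alternative could part E8wMB from its scan, so for the calls that involve E8wMB this cannot tell the group from the scan. Ccl4 also passed the filter only through E8wMB.

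The number of members called in E10d1B against P10d went from 0 to 1 when only the groups compared were fitted. In E8w1B against P8w it went from 3 to 1 with slide as a fixed block, with the replicate block, with median centring and with only the groups compared, and to between 1 and 3 when 1 array was left out. The call of Cxcl9 alone was lost there with the deposited table, the scanner software's ratio and Cy5 alone. In E8w1B against E8w it went from 1 to 0 with median centring and with only the groups compared, to 2 with the deposited table and with the scanner software's ratio, and to between 0 and 2 when 1 array was left out. In E8wMB against P8w it went from 1 to 2 with median centring, the deposited table and the scanner software's ratio, and to 4 with Cy5 alone. In E8wMB against E8w1B it went from 2 to 7 with Cy5 alone, and to between 2 and 3 when 1 array was left out. With median centring Cxcl2 was called in addition. For the difference between the 8-week and 10-day contrasts it went from 2 to 0 with slide as a fixed block, Cy5 alone and only the groups compared, to 1 with the replicate block and median centring, and to between 0 and 2 when 1 array was left out. The causes of these changes were not tested. Fits of only the groups compared, or without 1 array, also held fewer samples, and calls were both lost and gained in them.

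Same-numbered samples did not all deviate together (r of pairs from -0.241 to 0.354). With so few arrays this does not settle whether the numbers pair the samples, so pairing was run only as an alternative. The replicate block left the counts of the other comparisons at 0, 0, 1, 1 and 2. Slide as a fixed block could not be fitted for E8wMB, which shares no slide with another group. Signal near background limits Cxcl2, Cxcl9, Cxcl10, Ccl3 and Ccl4.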
